A study of Mus musculus with 154 samples.

Results

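Glucose taken up by the liver is broken down to pyruvate by the enzymes of glycolysis, and 8 genes of this route were followed here across a panel of chromosome substitution strains. The genes were Slc2a2, Gpi1, Pfkl, Tpi1, Pgk1, Eno1, Pklr and Ldha. They were taken by name, and all 8 were present among the 13289 genes of the liver count table. A chromosome substitution strain (CSS) carries a chromosome of the A/J strain on the background of C57BL/6J (B6). Per the study, all mice were 5 weeks old males that had fasted overnight, although 1 library held almost no Y-linked counts, as described below. They belonged to 24 strains. The control strain B6 had 20 mice. In 8 single CSSs, 1 A/J-derived chromosome was heterozygous: (B6.A4 X B6)F1, (B6.A5 X B6)F1, (B6.A8 X B6)F1, (B6.A10 X B6)F1, (B6 X B6.A3)F1, (B6 X B6.A6)F1, (B6 X B6.A14)F1 and (B6 X B6.A17)F1, with 7 mice for A5 and 8 for each of the others. In 15 double CSSs, such as (B6.A8 X B6.A14)F1, 2 different A/J-derived chromosomes were heterozygous, and each strain had between 3 and 6 mice. Each sire in these names stands first. Below, A8 stands for the single CSS with A/J-derived chromosome 8 and for its effect, and A14:A8 stands for the double CSS with chromosome 14 from the dam and chromosome 8 from the sire. Chromosomes 4, 5, 8 and 10 came from the sire and chromosomes 3, 6, 14 and 17 from the dam, so the chromosome and the parent that gave it cannot be told apart. An effect of a substitution is that of the whole chromosome with every variant on it.

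Slc2a2 encodes GLUT2, the transporter through which glucose crosses the hepatocyte membrane in both directions. Gpi1 interconverts glucose-6-phosphate and fructose-6-phosphate, and Pfkl is the liver subunit of phosphofructokinase, which commits the sugar to glycolysis. Tpi1 interconverts the triose phosphates, Pgk1 makes ATP from 1,3-bisphosphoglycerate, and Eno1 is an enolase that forms phosphoenolpyruvate. Pklr is the liver and red cell pyruvate kinase, which carries out the last step and is induced by carbohydrate feeding. Ldha is the lactate dehydrogenase subunit that interconverts pyruvate and lactate. In the fasted liver the reversible enzymes also run towards glucose, whereas the steps of Pfkl and Pklr are bypassed by the enzymes of gluconeogenesis.

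In mm10, Slc2a2 (ENSMUSG00000027690) lies on chromosome 3 (28697903 to 28731359) and Pklr (ENSMUSG00000041237) on the same chromosome (89136142 to 89146784). Eno1 (ENSMUSG00000063524) lies on chromosome 4 (150236721 to 150248879), Tpi1 (ENSMUSG00000023456) on chromosome 6 (124810586 to 124814296) and Pfkl (ENSMUSG00000020277) on chromosome 10 (77986947 to 78010083). A substitution of the gene's own chromosome was therefore tested for these genes in A3, A4, A6 and A10, and only there could variants near the gene differ. Gpi1 (ENSMUSG00000036427) and Ldha (ENSMUSG00000063229) lie on chromosome 7 (34201330 to 34230336 and 46841475 to 46855627) and Pgk1 (ENSMUSG00000062070) on chromosome X (106187100 to 106203699), none of which was substituted. Reads were 50 bases long, and the part of a gene's transcript 50-mers that occurred in another gene as well was 53.9% for Pgk1, 26% for Eno1, 20.5% for Pklr, 15.8% for Gpi1, 9.26% for Ldha and 4.18% for Tpi1. For Pgk1 and Eno1 the other genes were led by Pgk1-rs7 and Eno1b, so their counts are uncertain by the share of such reads. Slc2a2 had no shared 50-mer.

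The promoters of 3 members are shown because they hold the sequence motifs tied to regulators of glycolysis that were followed beside the members. Each sequence is the 250 bases before the RefSeq start site on GRCm38.p6, and the capitals mark motif matches on either strand. The start site of Pklr that lies further downstream (window chr3:89136373-89136622, plus strand) held 1 pair of E-box-like elements, CACGNG followed after 5 bases by CNCGTG, beginning 170 bases before the start. That is the arrangement known from carbohydrate response elements, to which ChREBP (gene Mlxipl) binds. The Ldha window (chr7:46845554-46845803, plus strand) held 2 copies of the palindromic E-box CACGTG and 1 further ACGTG, the core letters of a hypoxia response element. Since every CACGTG contains ACGTG on both strands, the ACGTG search counted 5 matches there. The Pgk1 window (chrX:106186850-106187099, plus strand) held 2 separate ACGTG matches.
Pklr: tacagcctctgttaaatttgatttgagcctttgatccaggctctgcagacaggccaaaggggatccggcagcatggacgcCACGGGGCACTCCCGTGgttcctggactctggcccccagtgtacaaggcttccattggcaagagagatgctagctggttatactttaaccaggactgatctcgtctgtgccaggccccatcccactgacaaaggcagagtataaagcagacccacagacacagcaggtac
Ldha: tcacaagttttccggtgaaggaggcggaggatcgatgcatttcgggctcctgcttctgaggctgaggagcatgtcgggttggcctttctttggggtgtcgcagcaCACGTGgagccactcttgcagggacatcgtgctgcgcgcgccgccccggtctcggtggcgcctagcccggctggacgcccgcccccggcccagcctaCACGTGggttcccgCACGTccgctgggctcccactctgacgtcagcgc
Pgk1: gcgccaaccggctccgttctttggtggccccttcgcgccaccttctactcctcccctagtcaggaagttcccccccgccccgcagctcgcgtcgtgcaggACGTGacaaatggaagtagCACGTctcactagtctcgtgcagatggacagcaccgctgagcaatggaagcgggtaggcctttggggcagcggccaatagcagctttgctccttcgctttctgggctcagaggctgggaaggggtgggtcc
Among 32851 promoter windows of the same length, ACGTG was present in 16.6%, CACGTG in 6.02% and the spaced pair in 0.0396%. The other 9 windows of the members held none of these letters. No binding was measured here, and a match describes the sequence only.

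Totals ranged between 4638701 and 30465477 counts per mouse, with a median of 16116424. The fewest counts for any member in any mouse were 81, for Pfkl. No pair of libraries within a strain held identical counts. Of the hepatocyte markers (Alb, Ttr, Apoa1, Apob, Tat, Cps1, Hnf4a), 7 of 7 were measured, and the sum of their levels lay between 103055 and 160688 CPM in B6, where CPM are counts scaled to a library of 1000000 counts. Although the study used only males, 4 Y-linked genes summed to 2.94 CPM in 1 mouse of A14:A4 (replicate 3), whereas the other mice had between 228 and 432 CPM. The edgeR tests of A14:A4 are therefore given with and without it, while results over all strains include it. A sample of whole liver cannot separate fewer cells of a type from less RNA per cell.

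Ldha had the highest level per length of transcript and Pfkl the lowest. In B6 the mean level in CPM per kilobase of exonic sequence was 250.3 for Ldha, 107 for Tpi1, 59.5 for Slc2a2, 43.3 for Pgk1, 24.5 for Eno1, 13.7 for Gpi1, 10.5 for Pklr and 2.82 for Pfkl. The SD of log2 CPM among the 20 B6 mice was smallest for Gpi1 (0.12) and largest for Pklr (0.47), against a median of 0.19 over 9616 genes with a mean log2 CPM of at least 2. Pklr thus varied most among genetically alike mice.

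All 8 members differed among the strains in a joint test of the 23 strain coefficients, with an FDR between 1.5e-10 for Eno1 and 0.0353 for Pfkl. FDR here and below is the Benjamini-Hochberg adjusted p of edgeR's quasi-likelihood F-test, and an effect was called when it was under 0.05. For main effects and interactions the adjustment was made separately for genes on and off the substituted chromosomes, and for the other tests over all genes of the table. In this joint test 51.4% of all genes were called, so the count of members is read against that share. Between the lowest and the highest strain mean, log2 CPM spanned 1.09 for Pklr, 0.96 for Slc2a2, 0.80 for Ldha, 0.77 for Eno1, 0.65 for Gpi1, 0.53 for Pfkl, 0.49 for Pgk1 and 0.46 for Tpi1. A8 had the lowest mean of all 24 strains for 5 members (Pfkl, Gpi1, Tpi1, Pgk1 and Eno1), and A14:A8 had the highest for 3 (Pklr, Gpi1 and Eno1). Most strains stood below B6: 21 of the 23 substituted strains had a lower mean for Ldha and for Eno1, and 19 for Gpi1 and for Pgk1. Pklr was spread evenly, with 12 strains above B6 and 11 below. How often other genes take these ranks was not counted, so the ranks are not shown to be particular to the members.

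Mean Ldha was lowest in A14:A4, at 529.8 ± 89.4 CPM (SD, n = 5), followed by A8 at 552 ± 78.8 CPM (n = 8), A3:A5 at 567 ± 77.3 CPM (n = 5) and A14 at 601 ± 168 CPM (n = 8). Next came A4 at 649 ± 111 CPM (n = 8), A14:A5 at 644 ± 56.1 CPM (n = 5), A10 at 662.9 ± 52.4 CPM (n = 8), A17:A5 at 671 ± 98.7 CPM (n = 5), A14:A8 at 688.9 ± 156 CPM (n = 5) and A17:A4 at 685 ± 59.99 CPM (n = 4). Among these, only A14:A4, A8, A3:A5, A14, A4, A14:A5 and A10 had a called main effect on Ldha or a called difference of Ldha from B6 in the tests that follow. The middle of the order held A6:A5 at 699 ± 95.9 CPM (n = 4), A3:A8 at 699 ± 25.2 CPM (n = 3), A6 at 711 ± 106 CPM (n = 8), A5 at 728 ± 82.7 CPM (n = 7), A3 at 735 ± 131.7 CPM (n = 8), A17:A10 at 735 ± 58.8 CPM (n = 4) and A6:A4 at 742.3 ± 82.4 CPM (n = 5). Above them stood A6:A10 at 753 ± 86.6 CPM (n = 5), A17:A8 at 770.2 ± 166 CPM (n = 5), A14:A10 at 784 ± 83.9 CPM (n = 5), A3:A10 at 791 ± 59.9 CPM (n = 5) and B6 at 829 ± 196 CPM (n = 20). A17, at 857 ± 155 CPM (n = 8), and A6:A8, at 925 ± 184 CPM (n = 6), were above B6. Along this order, made by mean log2 CPM, none of the 23 steps between neighbours was larger than the smaller of both SDs. The same held for every step of Pklr, Pfkl, Tpi1, Pgk1 and Eno1, while 4 steps exceeded that SD for Gpi1 and 2 for Slc2a2. An SD is the spread of single mice, so these steps do not test whether the means of neighbours differ.

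**Figure D1:**
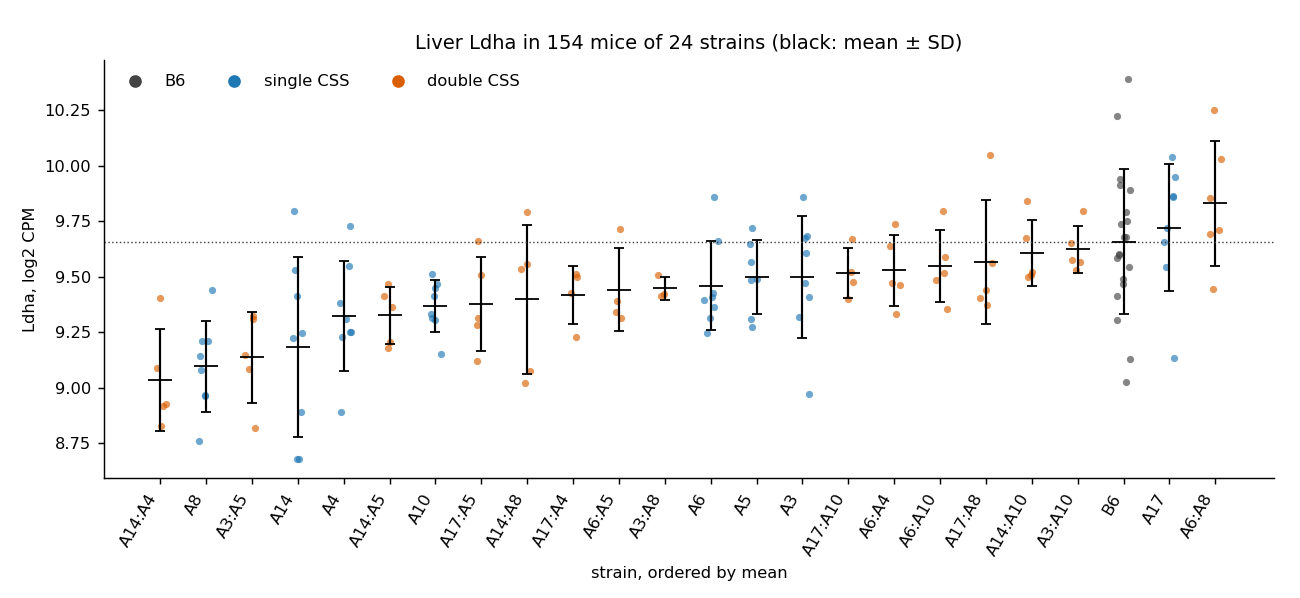
Ldha in log2 CPM (vertical axis) in each mouse, by strain in order of the mean (horizontal axis), with points coloured by class, black bars for mean ± SD and a dotted line at the B6 mean. Only A17 and A6:A8 have a mean above B6, and A14:A4, A8, A3:A5 and A14 lie lowest.

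To ask which single substitutions changed the members, the main effect of each substitution was tested in a model that also held all 15 interactions. Every comparison with B6 shares the same 20 control mice. Of 64 main effects, 15 were called (23.4%), and all 15 were lower than B6. Over all genes 11.1% of main effects were called, 5.74% as lower. The calls lay in A8 (6 members), A14 (6), A4 (2) and A10 (1), and none was made for Pklr or Pfkl. The share of all genes called lower was 16.7% in A8, 12.6% in A14, 5.88% in A4 and 2.97% in A10. The median effect over the 8 members was -0.36 in A8 and -0.27 in A14 on the log2 scale, beside -0.01 for all genes in either strain. The members were chosen with earlier results of these data known, and several of them vary together. Here and below, the shares beside those of all genes therefore describe the calls and do not test the members as a set.

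Slc2a2 fell in both strains. Its level was between 207 and 500.3 CPM (median 337) in B6, between 167 and 299 CPM (median 219) in A8 and between 148 and 423 CPM (median 261) in A14. The ranges overlapped, but 8 of 8 A8 mice and 6 of 8 A14 mice were under the B6 median. The main effect was -0.55 ± 0.13 (log2 fold change ± SE, FDR 0.000762) for A8 and -0.42 ± 0.13 (FDR 0.00896) for A14.

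Gpi1 separated most cleanly. It lay between 76.5 and 102 CPM (median 88.1) in B6 and between 52.4 and 69.9 CPM (median 60.9) in A8, so all 8 A8 mice were below every B6 mouse. In A14 it lay between 53.2 and 85.4 CPM (median 71.1), and 5 of 8 mice were below every B6 mouse. The main effect was -0.44 ± 0.07 (FDR 1.05e-07) in A8 and -0.28 ± 0.06 (FDR 0.000223) in A14.

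Eno1 showed one of the largest changes. Its level was between 97.1 and 179 CPM (median 127) in B6, between 58.2 and 104 CPM (median 80.4) in A8 and between 57.0 and 139 CPM (median 95.97) in A14. Of the 8 A8 mice, 7 were below all B6 mice. The A14 mice were split: 4 were below all B6 mice, at 57.0 to 81.6 CPM, and the others had 110 to 139 CPM. Those 4 had the lowest hepatocyte marker sums of A14, and 148 to 236 CPM of Slc2a2 against 287 to 423 CPM in the others. For Eno1 the SD of log2 CPM was 0.47 in A14 and 0.24 in B6, while the SEs given here come from the model with surrogate variables. The effect was -0.53 ± 0.08 in A8 (FDR 7.05e-08), -0.47 ± 0.07 in A14 (FDR 5.12e-07) and -0.38 ± 0.07 in A4 (FDR 1.98e-05), the substitution of the chromosome on which Eno1 lies. In A4 its level was between 81.0 and 115 CPM.

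Ldha was called in the most substitutions, with 4. It was between 521 and 1344 CPM (median 799) in B6, between 433 and 695 CPM (median 553) in A8 and between 409 and 889.8 CPM (median 603) in A14. All 8 A8 mice and 7 of 8 A14 mice were below the B6 median, although in each strain only 3 were below all B6 mice. The effect was -0.52 ± 0.10 in A8 (FDR 3.22e-05) and -0.53 ± 0.10 in A14 (FDR 1.53e-05). Smaller changes were called in A4 (-0.32 ± 0.10, FDR 0.0149) and in A10 (-0.32 ± 0.10, FDR 0.0344).

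Pgk1 and Tpi1 moved less. Pgk1 fell to a median of 70.6 CPM in A8 and 75.9 CPM in A14, against 96.9 CPM in B6, with effects of -0.28 ± 0.05 (FDR 9.34e-06) and -0.25 ± 0.05 (FDR 4.69e-05). Tpi1 had medians of 229 CPM in A8, 259 CPM in A14 and 301 CPM in B6, with effects of -0.19 ± 0.06 (FDR 0.0111) and -0.20 ± 0.06 (FDR 0.00433). Pfkl, with -0.20 ± 0.09 in A8 (FDR 0.0844) and -0.19 ± 0.08 in A14 (FDR 0.097), and Pklr, whose main effects ranged from -0.22 to 0.25, were not called. At an unadjusted p under 0.05 there were 3 of 8 main effects for Pfkl and 0 of 8 for Pklr, and a DESeq2 Wald test called none for either.

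The hepatocyte markers moved with these changes. Of the 7, 6 were called lower in A8 and 5 in A14, with a median effect of -0.33 and -0.37. Their summed level was between 55055 and 113941 CPM (median 82297) in A8 and between 60344 and 129505 CPM (median 90966) in A14, against a median of 122168 CPM in B6. Within A14 the mouse with the lowest sum (60344 CPM) had 57.0 CPM of Eno1 and 409 CPM of Ldha, and the mouse with the highest sum (129505 CPM) had 139 and 739.8 CPM. Over all mice, after the strain means of log2 values were removed, r with the marker sum was 0.70 for Eno1, 0.56 for Pgk1, 0.56 for Gpi1, 0.54 for Tpi1, 0.45 for Slc2a2, 0.33 for Ldha, 0.27 for Pklr and 0.03 for Pfkl, where both values come from the same library. The Kupffer cell and endothelial sums had ranges that overlapped those of B6 and medians above it. The Kupffer cell sum was between 249 and 464.1 CPM (median 311) in B6, 236 and 525 CPM (median 334) in A8 and 275 and 439 CPM (median 357) in A14. The endothelial sum was between 239 and 300.2 CPM (median 279.97) in B6, 264 and 329 CPM (median 287) in A8 and 260.4 and 338 CPM (median 304) in A14, so that the A14 median lay above every B6 mouse. Of 5 endothelial markers, 1 was called higher and 1 lower in A8, and 2 higher and 1 lower in A14. The part of cell composition in the members' changes was not tested.

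These counts depended on the number of surrogate variables, which stand for unmeasured variation shared by many genes. With 10 in place of 5, 9 main effects were called, 8 of them lower and among the 15, plus a higher Tpi1 in A6 (0.18). The 15 estimates kept their sign, at 0.129 to 0.799 times their size (median 0.603), while calls over all genes went to 4.25% and hepatocyte marker calls from 18 to 8 of 56.

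Interactions ask whether a double CSS differs from the sum of both single effects on the log2 scale. Of 120 interactions, 24 were called (20%), and all 24 were positive, meaning that the double CSS had more transcript than an additive model gives. Over all genes 5.96% were called, 3.35% as positive. The called interactions lay in 6 doubles: A14:A8 (8 of 8 members), A6:A8 (4), A14:A10 (4), A3:A8 (3), A17:A8 (3) and A14:A5 (2). The share of all genes called positive was 18.1% in A14:A8, 13.4% in A6:A8, 2.45% in A14:A10, 4.91% in A3:A8, 4.95% in A17:A8 and 2.49% in A14:A5. All 6 doubles carry A8 or A14, the substitutions with the most called main effects, and the main effects enter each interaction as its reference.

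**Figure D2:**
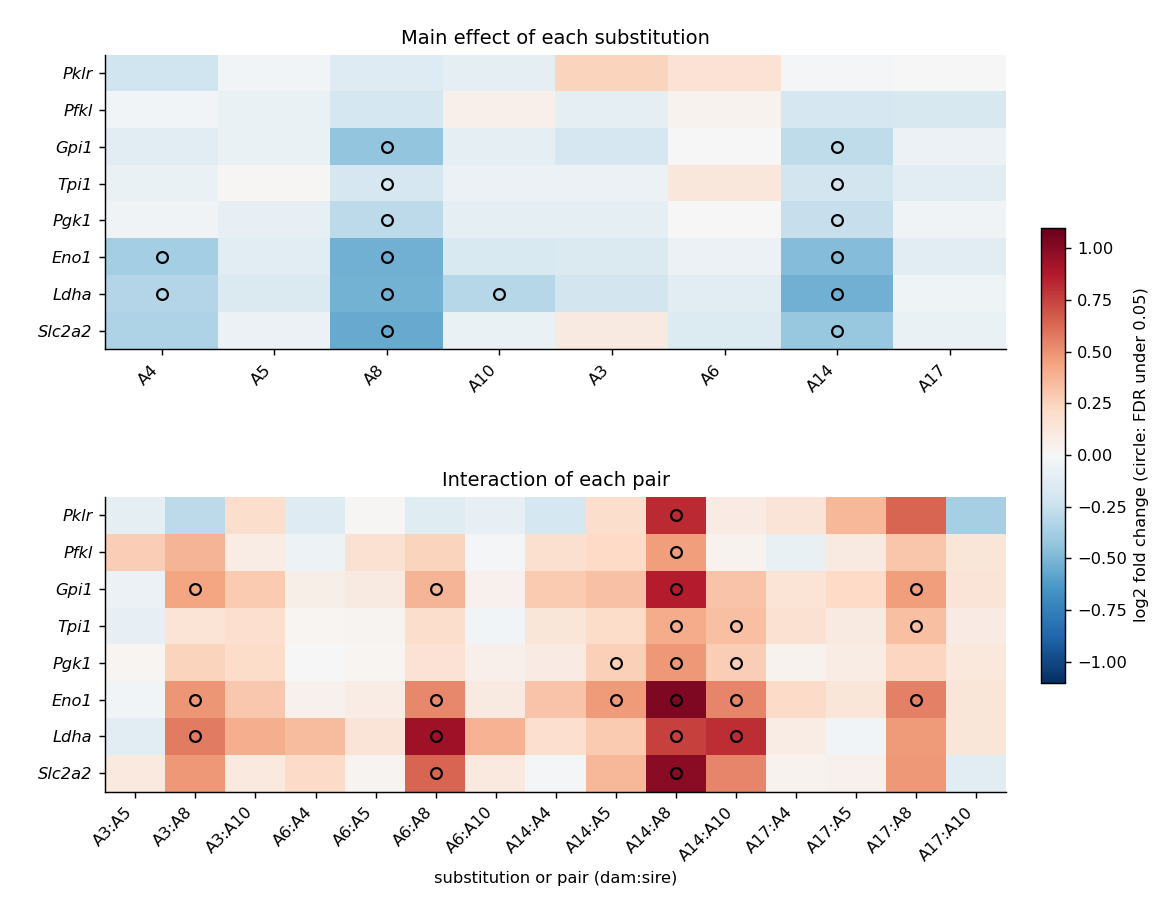
Log2 fold changes of the 8 genes (rows) for 8 main effects (upper panel) and 15 interactions (lower panel), with blue for lower, red for higher and a circle where the FDR was under 0.05. The called main effects are all blue and sit in A8, A14, A4 and A10, and the called interactions are all red, with all 8 genes in A14:A8.

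In A14:A8 the members stood near B6 rather than at the sum of both falls. The 5 mice had 108.9, 115.6, 145, 149.9 and 158 CPM of Eno1, all within the B6 range, where both main effects summed to -1.003 and the double differed from B6 by 0.02. The interaction was 1.03 ± 0.12 (FDR 3.72e-11), the largest of the 24. For Gpi1 the mice had 82.9, 83.6, 96.2, 107 and 113 CPM, 2 of them above every B6 mouse, and the interaction was 0.86 ± 0.10 (FDR 4.47e-11). Slc2a2 was at 321, 349.5, 353, 356 and 402 CPM, again inside the B6 range, with an interaction of 0.99 ± 0.21 (FDR 7.23e-05).

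Ldha stood lower. It was 520.4, 539.5, 743, 754 and 887 CPM in the 5 mice, 4 of which were under the B6 median. The interaction was 0.75 ± 0.16 (FDR 0.000104), and the double differed from B6 by -0.30, which was not called. Pgk1 (0.48 ± 0.08, FDR 1.38e-06) and Tpi1 (0.40 ± 0.10, FDR 0.000379) had smaller interactions. For Pfkl the 5 values were 16.3, 17.3, 18.6, 19.1 and 22.5 CPM, and the interaction was 0.46 ± 0.14 (FDR 0.00736) although neither main effect was called.

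Pklr differed from the rest in A14:A8. It was at 37.8, 39.6, 52.9, 62.8 and 68.5 CPM, against 16.97 to 55.7 CPM (median 34.7) in B6, so all 5 mice were above the B6 median and 2 above every B6 mouse. Neither main effect was called (-0.14 ± 0.16 for A8 and -0.02 ± 0.15 for A14). The interaction was 0.82 ± 0.26 (FDR 0.00846), and the double itself rose by 0.67 ± 0.17 against B6 (FDR 0.00674). Without surrogate variables, mean log2 CPM differed from B6 by -0.31 in A8, -0.16 in A14 and 0.64 in A14:A8. In A17:A8 Pklr was at 34.4, 35.8, 49.3, 57.7 and 62.0 CPM, and its interaction of 0.64 was not called (FDR 0.106).

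**Figure D3:**
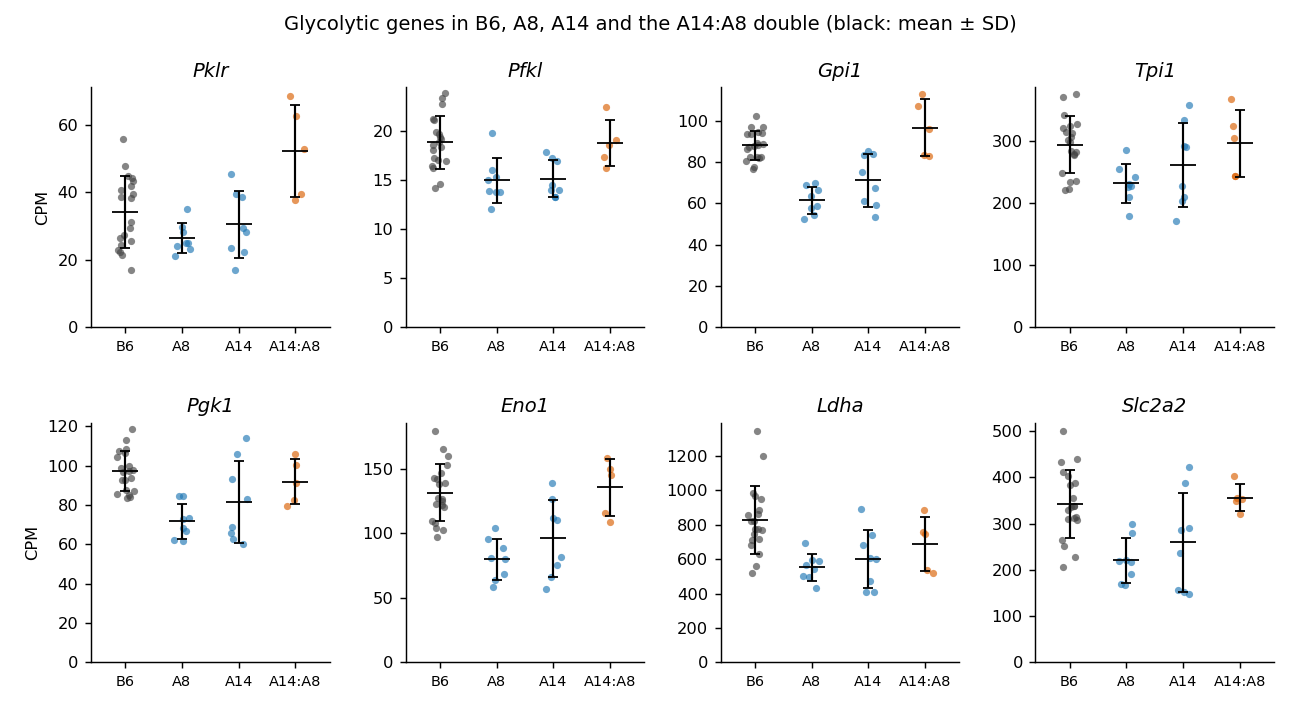
Each panel shows 1 gene in CPM (vertical axis, from 0) in single mice of B6, A8, A14 and the A14:A8 double, with black bars for mean ± SD. A8 and A14 lie below B6 for most genes, A14:A8 lies near B6, and Pklr is highest in A14:A8.

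Ldha had its other large interactions in A6:A8 and A14:A10. In A6:A8 it ranged from 698 to 1219 CPM (median 881, n = 6) and the interaction was 0.94 ± 0.16 (FDR 2.39e-06). There the A6 main effect was not called. The double stood above B6 by 0.29, with an unadjusted p of 0.0074 in edgeR's F-test, which was not called after adjustment. In A14:A10 the 5 mice had 724, 728, 735, 817 and 918 CPM, and the interaction was 0.81 ± 0.17 (FDR 0.00209). In A3:A8 the values were 683, 686 and 728 CPM, with an interaction of 0.57 ± 0.18 (FDR 0.0305). That call was lost without replicate 2 or replicate 3, with an FDR of up to 0.134. In A17:A8 the estimate for Ldha was 0.47 ± 0.16 (FDR 0.0501).

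Eno1 was called in the most doubles, with 6. Beside A14:A8 its interactions were 0.55 ± 0.13 in A17:A8 (FDR 0.00284), 0.53 ± 0.13 in A14:A10 (FDR 0.00896), 0.53 ± 0.12 in A6:A8 (FDR 0.000327), 0.49 ± 0.13 in A3:A8 (FDR 0.0149) and 0.47 ± 0.12 in A14:A5 (FDR 0.0179). Gpi1 was called in A17:A8 (0.46 ± 0.11, FDR 0.00304), A3:A8 (0.43 ± 0.11, FDR 0.00986) and A6:A8 (0.37 ± 0.10, FDR 0.00294). The remaining calls were Slc2a2 in A6:A8 (0.64 ± 0.20, FDR 0.0123), Tpi1 in A14:A10 (0.33 ± 0.10, FDR 0.0336) and A17:A8 (0.33 ± 0.10, FDR 0.0177), and Pgk1 in A14:A10 (0.27 ± 0.09, FDR 0.049) and A14:A5 (0.26 ± 0.08, FDR 0.0488). For A17:A8 the study itself reported no interaction for genes off the substituted chromosomes, and Eno1, Gpi1 and Tpi1 are such genes. With 10 surrogate variables, 1 of 13289 genes was called in that cross. The difference from the study is not limited to A17:A8. For every double with a called member, and for main effects and interactions in total, the study reported fewer calls than were made here. The fit used here called 11.1% of main effects and 5.96% of interactions over all genes. How the study called each member is not reported here, and the cause of the difference was not tested.

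For 23 of the 24 called interactions the double CSS lay closer to B6 than adding its main effects would place it, and Pklr in A14:A8 was the exception. Closer is meant on either side of B6, as Ldha in A6:A8 (0.29) and Gpi1 in A14:A8 (0.14) stood above it. In 18 of the 24 the double had an unadjusted p above 0.1 against B6, which does not show that it equalled B6. The hepatocyte markers again moved the same way, with 4 of 7 called positive in A14:A8 (median 0.70), 5 in A6:A8 and 3 each in A3:A8 and A14:A10. Their sum in A14:A8 was between 102220 and 128491 CPM. The share of this in the members' interactions was not tested.

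With 10 surrogate variables, only 5 interactions of the members were called (4.17%), against 1.23% of all genes. These were Eno1 (0.55), Gpi1 (0.49), Pgk1 (0.37) and Pfkl (0.50) in A14:A8 and Ldha (0.66) in A6:A8. All 24 estimates stayed positive, at 0.0862 to 1.07 times their size (median 0.613). The interactions of Slc2a2, Pklr and Tpi1 were thus called with 5 surrogate variables and not with 10.

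**Figure D4:**
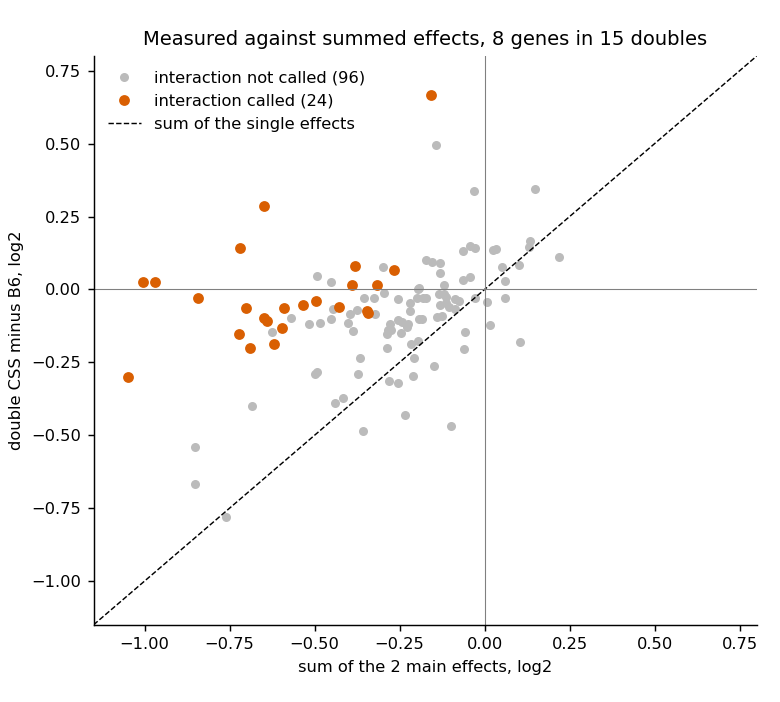
Difference of each double CSS from B6 (vertical axis, log2) against the sum of both main effects (horizontal axis, log2) for 8 genes in 15 doubles, with orange points where the interaction was called and a dashed line where both are equal. The 24 orange points lie above the line, and 18 of them had an unadjusted p above 0.1 against B6.

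Compared directly with B6, the doubles differed for the members in 12 of 120 cases (10%), 11 of them lower, and Pklr in A14:A8 was the only higher one, where 2.63% of all genes were called higher. Over all genes and doubles 3.98% were called, 1.83% as lower. Of the 12, 4 lay in A14:A4, where the share of all genes called lower was 7.21%. The 5 A14:A4 mice had 454.6, 484, 487, 545 and 678.7 CPM of Ldha, 3 of them below every B6 mouse, a difference of -0.67 ± 0.11 (FDR 7.68e-06). Slc2a2 was at 171.5, 175.9, 196.7 and 228.3 CPM in 4 mice and at 7.91 log2 CPM in the highest mouse, with 3 mice below every B6 mouse, a difference of -0.78 ± 0.15 (FDR 7.4e-05). The difference was -0.54 ± 0.09 for Eno1 (FDR 1.46e-06) and -0.20 ± 0.06 for Pgk1 (FDR 0.009). Without the mouse with few Y-linked counts these differences were -0.66 for Ldha, -0.83 for Slc2a2, -0.55 for Eno1 and -0.19 for Pgk1. All 4 were called, with the surrogate variables of all mice kept. None of the 8 interactions of A14:A4 was called with or without this mouse by edgeR, nor with all mice by DESeq2, while 2 (Gpi1 and Eno1) had an unadjusted p under 0.05 with all mice. Of all 13289 genes, DESeq2 called 686 for this interaction.

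A3:A5 held 4 further calls. Gpi1 fell (-0.32 ± 0.07, FDR 0.000934), and Ldha (-0.48 ± 0.11, FDR 0.00167), Eno1 (-0.31 ± 0.09, FDR 0.00791) and Pgk1 (-0.18 ± 0.06, FDR 0.0261) fell as well, where 6.8% of all genes were called lower. Ldha was at 451, 543.5, 568, 634.5 and 639.9 CPM in the 5 mice. In the single strains edgeR called no member in A3 or A5, where 4 and 0 of 8 had an unadjusted p under 0.05, and DESeq2 called 1 (Gpi1 in A3). Of all 13289 genes, DESeq2 called 591 in A3 and 109 in A5. For the A3:A5 interaction 0 of 13289 genes were called by edgeR or by DESeq2, and 4.49% had an unadjusted p under 0.05 in edgeR. The other 3 calls were Eno1 in A6:A4 (-0.39 ± 0.09, FDR 0.00163), Eno1 in A17:A4 (-0.29 ± 0.09, FDR 0.0482) and Ldha in A14:A5 (-0.40 ± 0.11, FDR 0.0414), where 2.14%, 1.73% and 0.549% of all genes were called lower. With 10 surrogate variables 7 of the 12 differences were still called, and the 5 lost were Pgk1 and Eno1 in A3:A5, Pgk1 in A14:A4, Ldha in A14:A5 and Eno1 in A17:A4.

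The rest of the pathway was read from 40 other genes of glucose uptake, glycolysis and pyruvate handling, of which 34 were measured. In A8, 12 were called lower and 1 higher, and in A14 10 were called lower and 1 higher. Over all genes 12.9% were called higher in A8 and 9.98% in A14, beside the 16.7% and 12.6% called lower. Gapdh, which acts between Tpi1 and Pgk1, fell, with effects of -0.47 ± 0.07 in A8 (FDR 2.36e-08) and -0.38 ± 0.06 in A14 (FDR 2.29e-06). Aldolase genes fell likewise in A8, with -0.53 ± 0.09 for Aldoa and -0.75 ± 0.18 for Aldoc. Pgam1, the phosphoglycerate mutase, fell in A8 (-0.33 ± 0.05) and in A14 (-0.26 ± 0.05). Also lower in A8 were Pfkfb3 (-0.76) and Pfkfb1 (-0.40), which set the level of the activator of phosphofructokinase, the pyruvate dehydrogenase kinase Pdk2 (-0.38), the glucose transporter Slc2a8 (-0.38) and the monocarboxylate transporter Slc16a7 (-0.34). In A14, Pfkp (-0.40) was lower.

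Of the 11 regulators, 4 were called lower and 1 higher in A8, and 3 lower and 1 higher in A14. The higher one was Mlxipl, by 0.37 ± 0.09 in A8 (FDR 0.000697) and 0.35 ± 0.08 in A14 (FDR 0.000817). Its level was 43.7 ± 9.07 CPM in B6 (n = 20), 61.3 ± 11.4 CPM in A8 (n = 8) and 55.1 ± 15.8 CPM in A14 (n = 8). In A14:A8 it stayed above B6 at 59.5 ± 11.3 CPM (n = 5), a difference of 0.41 ± 0.10 (FDR 0.00312), where its interaction of -0.31 was not called (FDR 0.0938). Hnf4a, a nuclear receptor of hepatocytes, fell in A8 (-0.32) and in A14 (-0.29). Among the other genes of the route, 12 interactions of A14:A8 were positive and 2 negative, with Gapdh at 0.80 ± 0.11 (FDR 1.3e-09), Aldoa at 0.61 ± 0.14, Aldoc at 1.24 ± 0.28 and Pgam1 at 0.53 ± 0.09. Slc2a8 (0.97), Pfkfb3 (0.91), Slc16a7 (0.90) and Slc2a9 (0.65) were also positive, while Pdk4, the pyruvate dehydrogenase kinase of fasting, was negative (-1.05 ± 0.35, FDR 0.0146). Of 12 measured HIF1 targets outside glycolysis, 1 was called higher and 1 lower in A8, 1 higher and 2 lower in A14, and 1 positive and 3 negative in the A14:A8 interaction, where 18.1% of all genes were called positive and 14.3% negative.

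The members did not vary as a single block. Over the 24 strain means, r was 0.84 between Gpi1 and Tpi1, 0.78 between Tpi1 and Pgk1, 0.78 between Gpi1 and Eno1 and 0.75 between Eno1 and Slc2a2, but 0.16 between Pklr and Ldha and 0.10 between Pfkl and Pgk1. Among mice within strains (all mice) the highest values were 0.86 for Tpi1 with Pgk1 and 0.74 for Pgk1 with Eno1, and Pklr went with Slc2a2 (0.52) rather than with Ldha (-0.06). Genes of a library share its depth and composition, so these values describe the data and carry no test. Among the genes whose strain means were most like Ldha were Ephx2 (r = 0.92), Acaa1a (0.89), Chrna2 (0.88) and Hadhb (0.87), out of 9616 genes compared over 24 strains. For Pklr they were Tkfc (0.85) and Rdh9 (0.79), for Slc2a2 Hoga1 (0.90) and Narf (0.87), for Gpi1 Ctsd (0.90) and Clptm1 (0.87), and for Pfkl Abhd14b (0.86) and Ptprk (0.84). For Tpi1 they were Pmpca (0.86) and Pgam1 (0.84), for Pgk1 Atp5b (0.92) and Cyc1 (0.90), and for Eno1 Ap2m1 (0.92) and Apmap (0.88). Some of these genes lie on substituted chromosomes: Ephx2 and Chrna2 on 14, Hadhb on 5, and Rdh9, Ptprk and Atp5b on 10. The part of variants on those chromosomes in the likeness was not tested.

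Fasting plasma glucose had been measured in every mouse, and a slope on glucose was tested for every gene beside the strain terms, so that it compares mice within strains. Of the 8 members 2 were called, both negative, against 2.69% of all genes (1.3% negative). For Ldha the slope was -0.040 ± 0.011 on the log2 scale for each 10 mg/dL more glucose (± SE, FDR 0.0219), and for Tpi1 it was -0.025 ± 0.0062 (FDR 0.0162). The next values were -0.020 ± 0.0066 for Gpi1 (FDR 0.0688) and 0.047 ± 0.016 for Pklr (FDR 0.0903), the latter with the opposite sign, and neither was called. Slopes of Eno1, Pgk1, Slc2a2 and Pfkl lay between -0.011 and 0.0087. Of 45 measured other genes of the route and its regulators, 2 were called negative and 1 positive. The negative ones, like Ldha, were Aldoa (-0.032 ± 0.0087, FDR 0.0237) and Slc2a8 (-0.035 ± 0.010, FDR 0.0416). In the 20 B6 mice alone the slopes were -0.028 ± 0.031 for Ldha (FDR 0.856) and -0.038 ± 0.015 for Tpi1 (FDR 0.565), and none of the 8 members was called, while 2 (Tpi1 and Slc2a2) had an unadjusted p under 0.05. Over all genes, 0 of 13289 were called in these 20 mice, and 1094 had an unadjusted p under 0.05. DESeq2 was not run in B6 alone.

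**Figure D5:**
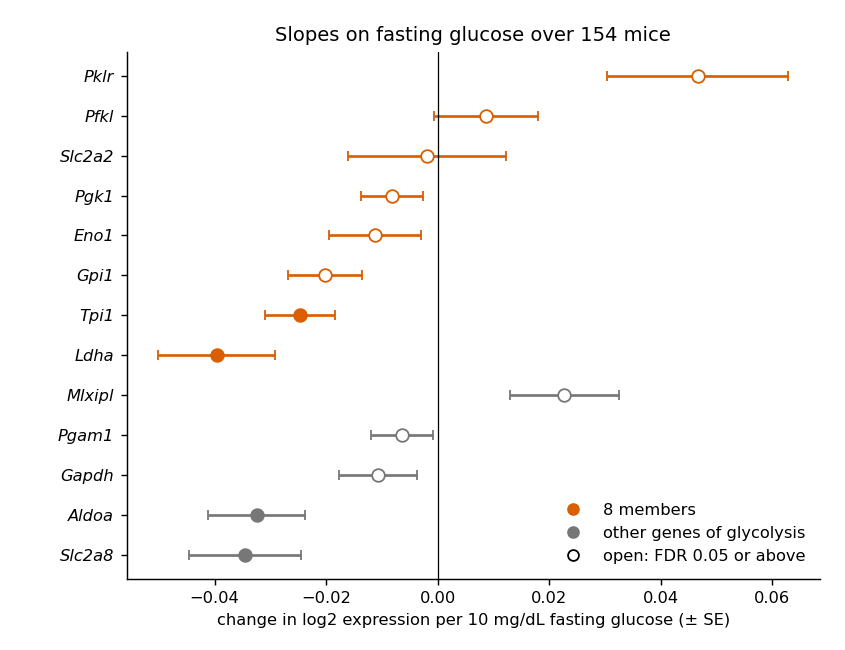
Slope of log2 expression per 10 mg/dL of fasting plasma glucose (horizontal axis, ± SE) for the 8 members in orange and 5 other genes of glycolysis or its regulation in grey, with filled points where the FDR was under 0.05. Ldha and Tpi1 are the filled orange points, both below 0, and Aldoa and Slc2a8 are filled grey points below 0. The 1 other gene called with a positive slope is not shown.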

How the data were processed

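RNA was measured in the liver of each mouse (caudate lobe). Per the study's methods, stranded total RNA libraries were sequenced as single-end 50-base reads on 4 flow cells, and which library ran on which flow cell is not given in the sources used here. The authors aligned reads with TopHat2 to mm10 with GENCODE M7, realigned what stayed unmapped to a genome individualized for A/J, took counts with HTSeq, left out 3 outlier samples and filtered low counts. The deposited values are raw counts for 13289 genes. 0 columns of per-sample values went unused, and 47 genes had no position in the annotation. Totals of 4638701 to 30465477 counts per mouse bear on the precision.

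Counts were scaled by TMM and fitted in edgeR 4.0.16 (R 4.3.3) with 8 main effects, 15 interactions and 5 surrogate variables (svaseq, sva 3.50.0), with quasi-likelihood F-tests over all genes. P-values were adjusted within each effect, for genes on and off the substituted chromosome separately. Doubles were contrasted with B6, and a glucose slope was fitted with strain terms, with plasma glucose from the study's phenotype table as a covariate only. Values in CPM use the same scaling, and log2 CPM adds a prior count of 2. Errors of log2 fold changes were derived from the F statistic. Likeness was Pearson's r of strain means, for the 5 genes nearest Ldha and the 2 nearest each other member. The script was tested on simulated data. Mice count as separate animals, and replicate numbers follow accession order. DESeq2 1.42.0, other surrogate variables, filters and thresholds, and leaving out single mice of the smaller doubles were alternatives. The members, lists and the rule for named genes (called list genes, up to 10 per strain by size, and 5 kept in any case) were chosen with earlier results of these data known. Genes of the lists that were not in the table were not analysed here. Some items that the rule names are not reported here.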

Additional observations from a re-analysis of the deposited data

Results flagged for a closer look

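Each of the 8 genes was tested in the 22 strains of 4 to 10 mice, and in 11 of these groups (6.25%) 1 mouse lay apart from the rest by Dixon's criterion, where chance gives about 1 in 20. Pklr had 4 of these, each a low mouse: 12.2 CPM in A4 replicate 1 (others 25.2 to 35.6 CPM), 19.2 CPM in A6:A4 replicate 5 (others 29.2 to 33.8 CPM), 28.0 CPM in A3:A5 replicate 2 (others 39.3 to 44.9 CPM) and 30.6 CPM in A3:A10 replicate 4 (others 42.7 to 46.5 CPM). Other low mice were A5 replicate 3 for Pfkl at 14.1 CPM (others 17.6 to 20.5 CPM), A17:A4 replicate 1 for Gpi1 at 80.6 CPM (others 88.5 to 88.9 CPM) and A3:A10 replicate 5 for Tpi1 at 265 CPM (others 321 to 338 CPM). High mice were A6:A8 replicate 2 for Gpi1 at 95.3 CPM (others 76.9 to 83.2 CPM), A6:A8 replicate 4 for Tpi1 at 364.5 CPM (others 251 to 279 CPM) and for Pgk1 at 95.4 CPM (others 74.4 to 78.5 CPM), and A17:A8 replicate 5 for Ldha at 1060.1 CPM (others 662.7 to 757 CPM).

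The effect of a substitution differed with the second substitution in 24 interactions (log2), each past an FDR of 0.05 in edgeR's quasi-likelihood test. In A14:A8 they were 1.03 for Eno1, 0.99 for Slc2a2, 0.86 for Gpi1, 0.82 for Pklr, 0.75 for Ldha, 0.48 for Pgk1, 0.46 for Pfkl and 0.40 for Tpi1. In A6:A8 they were 0.94 for Ldha, 0.64 for Slc2a2, 0.53 for Eno1 and 0.37 for Gpi1. In A3:A8 they were 0.57 for Ldha, 0.49 for Eno1 and 0.43 for Gpi1, and in A17:A8 0.55 for Eno1, 0.46 for Gpi1 and 0.33 for Tpi1. In A14:A10 they were 0.81 for Ldha, 0.53 for Eno1, 0.33 for Tpi1 and 0.27 for Pgk1, and in A14:A5 0.47 for Eno1 and 0.26 for Pgk1.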

How the results depend on the processing

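With 10 surrogate variables, called main effects went from 15 to 9 and interactions from 24 to 5, and 5 of 12 calls of doubles against B6 were lost (8 called in all). Without surrogate variables 4 of those 12 were lost (9 called in all). In B6 mice alone 0 glucose slopes were called, among the members as among all 13289 genes. The cause was not tested. Among the other alternatives, each run for the counts it applies to, no count moved by more than 1.5 times. An FDR threshold of 0.01 was run for main effects (12) and interactions (16) only, and neither glucose call reaches it. None of the 53 effects called in the reported fit changed sign under any alternative, but 56 of 402 values were no longer called. The signs of effects that were not called were not followed. Single mice were left out only in doubles of 3 to 5 mice, 65 mice in turn, which gave 21 to 25 interactions and 10 to 13 doubles called against B6. These fits kept the surrogate variables and dispersions estimated from all mice, so they do not show how those estimates depend on a mouse. No mouse of B6, a single CSS or A6:A8 was left out, so the 15 to 16 main effects say nothing of their stability, and the 4 calls of A6:A8 were not tested this way. Of the other 20 interactions, those lost were Gpi1 (without replicate 3, FDR 0.0583), Ldha (2 or 3, up to 0.134) and Eno1 (3, 0.0979) in A3:A8, Pgk1 (1, 2, 3 or 5, up to 0.116) and Eno1 (1, 0.0634) in A14:A5, Tpi1 (5, 0.0725) and Pgk1 (2, 3 or 5, up to 0.111) in A14:A10, and Tpi1 (4, 0.0515) in A17:A8. Differences from B6 lost that way were Pgk1 (2, 4 or 5, up to 0.157) and Eno1 (2, 0.0866) in A3:A5, Pgk1 (2, 0.0576) in A14:A4, Ldha (3, 4 or 5, up to 0.188) in A14:A5, Pklr (2, 0.0966) in A14:A8 and Eno1 (any of 4 mice, 0.0556 to 0.163) in A17:A4. All 8 interactions of A14:A8 stayed called. No paired analysis was possible because replicate numbers were given in accession order and pair no mice. The fewest counts for a member in a mouse were 81.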
